A study of Homo sapiens with 6 samples.

Results

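Histone lysine methyltransferases, here called writers, and histone lysine demethylases, here called erasers, were measured as messenger RNA in a leukaemia cell line with and without flavokawain A (FKA), a chalcone known from the kava plant. A list of 41 gene symbols defined the members, 24 writers and 17 erasers, and all 41 were found among the 21857 genes of the count and FPKM tables. The cells were MV4;11, an established acute myeloid leukaemia line that carries FLT3-ITD and the MLL-AF4 fusion, per the labels in every library. Bulk RNA sequencing covered 3 libraries of untreated control cells and 3 of cells given FKA at 10 µg/ml for 48 h, and the labels place 1 library of each group in each of 3 batches. The labels do not say whether replicates came from separate cultures or whether controls received a solvent, so p-values measure the spread between these libraries, which may be technical. In bulk RNA, fewer cells of a type and less RNA per cell cannot be told apart.

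Writers transfer methyl groups from S-adenosylmethionine to lysines of the histone tails, most of them through a SET domain. Erasers remove these groups with either a flavin cofactor, as in the LSD1 family, or iron and 2-oxoglutarate, as in the JmjC family. Methylation of H3K4 marks promoters and enhancers, that of H3K36 marks transcribed genes, and those of H3K9, H3K27 and H4K20 are known from silent or compacted chromatin.

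Promoter sequence is shown for the members that were called with at least a 2-fold change and whose window held a searched motif, since these are the genes whose levels moved most. RefSeq promoter windows (250 bases before to 50 after the start, build GRCh38.p14) matched 39 of the 41 members. NSD3 and SETD1B were not matched. SUV39H1, the other member with such a change, held none of the motifs in either of its windows. 5 motifs were searched as plain letters on both strands: E2F (TTTCCCGC or TTTGGCGC), the cell cycle homology region CHR (TTTGAA or TTCGAA), the E-box (CACGTG), an NRF2 core (TGACTCAGC) and FOXO (TGTTTAC). None of these letter strings is contained in another of the set. Capitals mark the matched letters. The first sequence is the 250 bases before the NSD2 start on the plus strand, chr4:1871143-1871392. It is followed by short windows at the SUV39H2 start, chr10:14878856-14878885 on the plus strand, and at the EZH1 start, chr17:42744991-42745020 on the minus strand.
NSD2: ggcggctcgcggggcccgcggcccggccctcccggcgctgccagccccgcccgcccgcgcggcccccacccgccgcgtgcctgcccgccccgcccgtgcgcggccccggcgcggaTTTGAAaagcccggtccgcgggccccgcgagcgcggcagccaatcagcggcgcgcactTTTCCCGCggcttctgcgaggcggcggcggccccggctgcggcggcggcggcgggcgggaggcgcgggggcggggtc
SUV39H2: agaccgcgccagTTTGAAtgaaagctctac
EZH1: gggatggagggtgagtgaGTAAACAagcct

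The NSD2 window held CHR letters 135 bases and E2F letters 77 bases before the start. In SUV39H2 the CHR letters lay 2 bases after the start, and in EZH1 the FOXO letters lay 38 bases after it on the opposite strand, so that the printed gene strand reads GTAAACA. E2F letters were found in 2.27% of all promoter windows of this length, and among the members in NSD2, JMJD1C and KDM1B. CHR letters were found in 16.4% of all windows, and among the members in NSD2, SUV39H2, KMT5A, JMJD1C, KDM2A and PHF8. FOXO letters were found in 3.42% of windows and in EZH1, KDM2B and NSD1, and the E-box in 7.26% of windows and in 7 members (EHMT2, JMJD1C, KDM4B, KDM4C, KMT2D, NSD1 and SETDB1). The NRF2 core was found in 0.561% of windows and in 0 members. Among windows of tested genes the shares were 3.44% for E2F, 12.1% for CHR, 2.58% for FOXO, 9.29% for the E-box and 0.505% for the NRF2 core. The members had 58 windows, of which 3, 6, 3, 8 and 0 held these letters, in the same order. A match describes letters in a window and is no evidence of a bound factor.

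With FKA, transcripts of the dimethyl-H3K36 writer NSD2 and of the heterochromatin writers SUV39H1 and SUV39H2 fell 4.31-fold, 2.51-fold and 4.07-fold, and those of the Polycomb writer EZH1 rose 2.19-fold. Among the erasers, the trimethyl-H3K4 erasers KDM5A and KDM5B and the H3K9 and H3K36 erasers KDM4B and KDM4C rose, while KDM7A and KDM6B fell. At an adjusted p under 0.05 over 13531 tested genes (quasi-likelihood test of edgeR, Benjamini-Hochberg), 7 members were higher, 12 were lower and 22 did not pass. Of all genes tested, 59.8% were called, 29.3% higher and 30.5% lower, so the members' share of 46.3% was not above the background. At least 2-fold changes were called for 1 member upward and 3 downward, where 25.5% of all genes passed that rule. The median absolute log2 fold change was 0.25 over the members and 0.54 over all genes.

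By class, of 24 writers, 3 rose, 10 fell and 11 did not pass, with a median log2 fold change of -0.14. Of 17 erasers, 4 rose, 2 fell and 11 did not pass, with a median of 0.11, beside 0.01 over all genes. These directions depended on how libraries were scaled. TMM scaling, which sets the bulk of genes equal, gave the values above. Scaling by library totals alone moved the median of all genes to 0.17, gave 16 members higher and 4 lower, and put the writers' median at 0.02 and the erasers' at 0.26. Upper-quartile scaling gave 11 members higher and 8 lower. The gap between the medians, writers minus erasers, was -0.25. Scaling factors shift all genes by about the same amount, so this gap cannot depend on them. It was -0.27, -0.21 and -0.17 within batches 1, 2 and 3. It is a description of the list and carries no test.

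**Figure D1:**
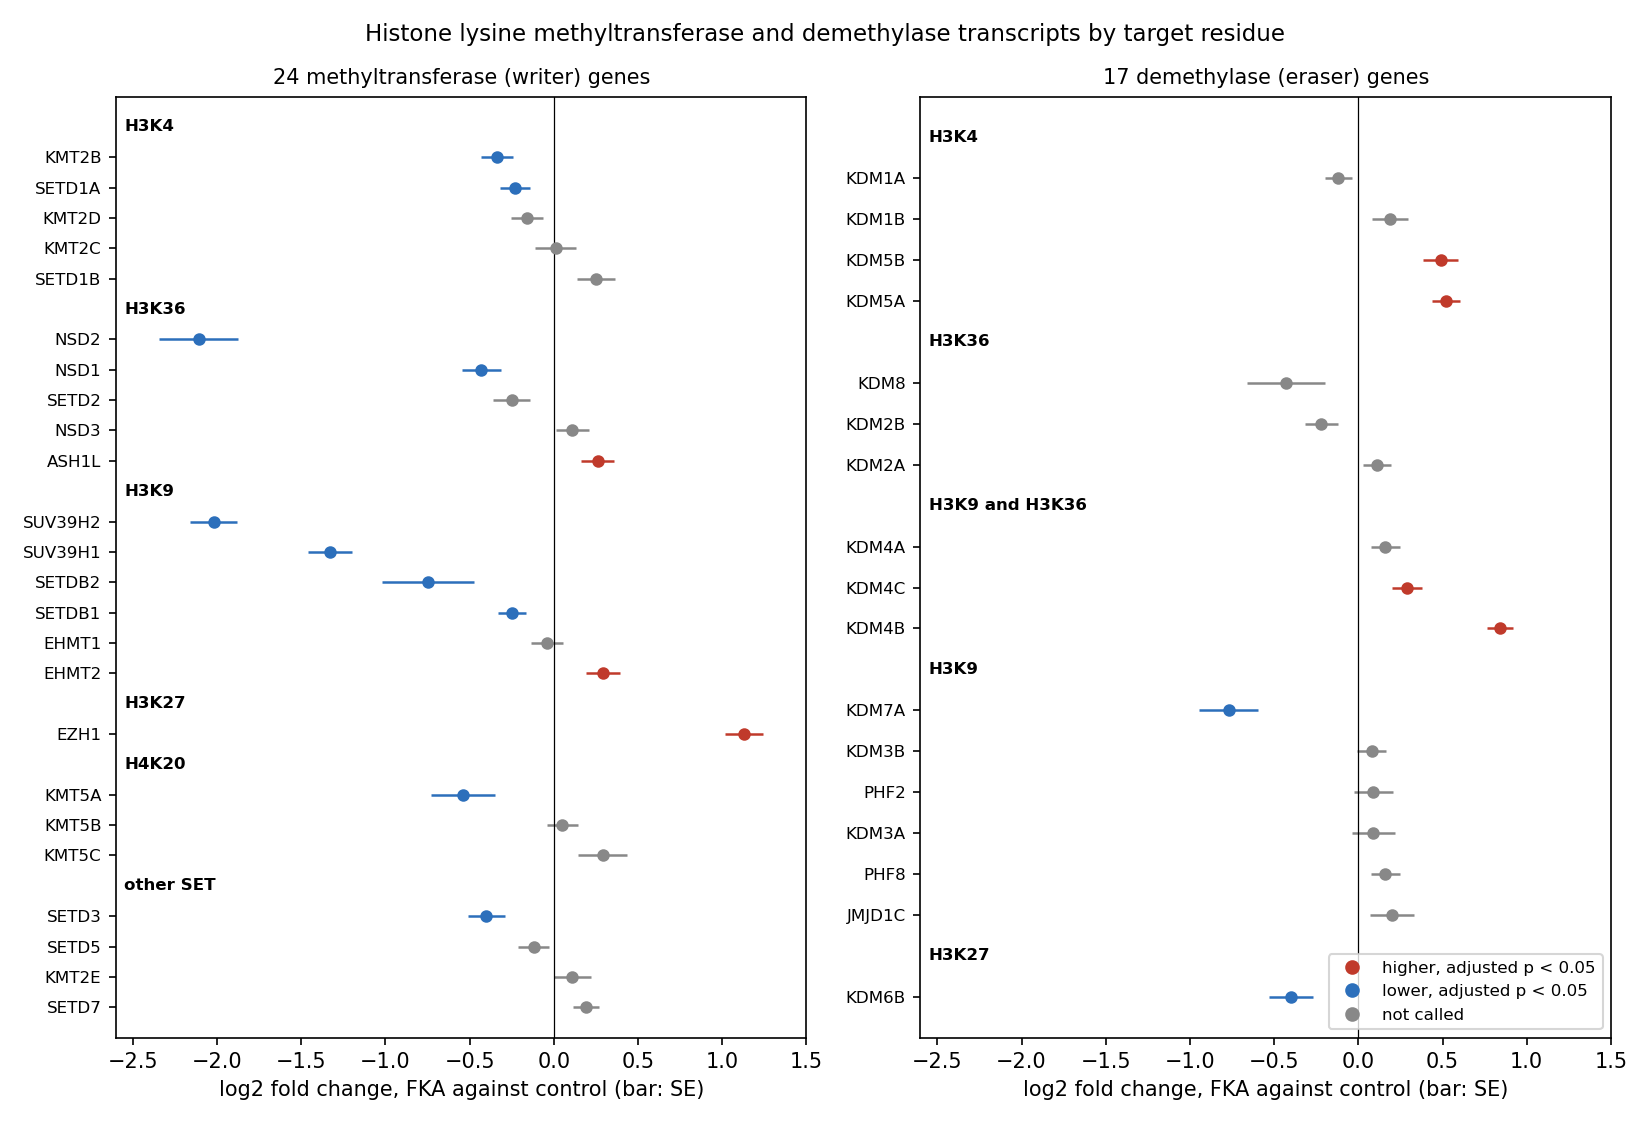
Fitted log2 fold change of each of the 41 members, FKA against control, writers on the left and erasers on the right, grouped by target residue on the y axis, with bars of 1 standard error and colour for the call. NSD2 and SUV39H2 sit lowest, at -2.11 and -2.02, and EZH1 highest, at 1.13.

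Levels per transcript length, as FPKM, ranged widely among the members. JMJD1C, a JmjC protein of the H3K9 eraser family, ranked first in both groups, with a mean FPKM of 38.1 in control and 49 with FKA. KDM8, a JmjC protein listed with the H3K36 erasers, had a mean FPKM of 0.901 in control and 0.745 with FKA. On the same FPKM scale EZH1 moved from rank 30 of 41 to rank 12, NSD2 from rank 24 to 37, and KDM7A from rank 8 to 23.

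The NSD family places mono- and dimethyl groups on H3K36. NSD2 stood at 147, 268 and 292 CPM (counts scaled to library size with TMM factors) in control libraries 1 to 3 and at 52.7, 62.3 and 49.1 CPM with FKA. Every FKA library lay below every control library, and control library 1 was the lowest of the controls. Means were 236 ± 77.7 and 54.7 ± 6.85 CPM (SD, n = 3 each), a log2 fold change of -2.11 ± 0.23 (SE) with an edgeR adjusted p of 0.000101, or 4.31-fold lower. Batch values of -1.48, -2.1 and -2.57 had one sign.

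NSD1, its paralog known from Sotos syndrome, fell by 0.43 on the log2 scale (edgeR adjusted p = 0.0105), from 177 ± 22 to 131 ± 12.6 CPM (SD, n = 3 each). Batch 1 gave -0.17 for NSD1, where batches 2 and 3 gave -0.59 and -0.52. NSD3 did not pass the test, with 273 ± 21.8 and 296 ± 21.4 CPM and overlapping groups. The within-library FPKM ratio of NSD2 to NSD3 went from 0.405, 0.64 and 0.701 in control to 0.113, 0.146 and 0.122 with FKA, and that of NSD2 to NSD1 from a mean of 0.968 to 0.305. Both ratios were lower in every FKA library than in any control library. ASH1L, which also writes dimethyl-H3K36, was called higher at a log2 fold change of 0.26 (edgeR adjusted p = 0.0399). SETD2, the main trimethyl-H3K36 writer, did not pass at -0.25 (edgeR adjusted p = 0.0791). It passed at an adjusted p of 0.00528 when control library 1 was left out. The ASH1L call was kept in 9 of 17 alternative settings, and DESeq2 was among those that lost it.

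Of the 6 H3K9 writers, 1 was higher, 4 were lower and 1 did not pass. That is 83.3% called, beside 59.8% of all genes, in a group of only 6 genes. Under library totals 1 was higher, 2 were lower and 3 did not pass. SUV39H1 and SUV39H2, which lay trimethyl-H3K9 at pericentric heterochromatin, fell the most. SUV39H1 was at 20.4, 18.9 and 22.5 CPM in control and at 8.04, 8.25 and 8.29 CPM with FKA. SUV39H2 was at 27.9, 30.4 and 31 CPM in control and at 7.49, 6.25 and 8.17 CPM with FKA. In both genes the groups were well apart and the libraries within a group were close together. The log2 fold changes were -1.33 ± 0.13 (SE, edgeR adjusted p = 5.01e-05, 2.51-fold lower) for SUV39H1 and -2.02 ± 0.14 (SE, edgeR adjusted p = 9.63e-06, 4.07-fold lower) for SUV39H2. SUV39H2 shares 159 exon bases, 4.46% of its exons, with DCLRE1C on the opposite strand, and because the use of strand is not stated, reads there cannot be assigned to one gene.

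SETDB1, which writes H3K9 methylation at silenced retroelements, fell by 0.25 on the log2 scale (edgeR adjusted p = 0.0275). That call is uncertain, since 948 of its exon bases (13.4%) overlap CERS2 on the opposite strand, whose mean count of 11500 in control exceeded the 4970 of SETDB1, and 7 of 17 settings kept it. The summed FPKM of SUV39H1 and SUV39H2 over that of SETDB1 was 0.421, 0.486 and 0.494 in control and 0.172, 0.165 and 0.188 with FKA. SETDB2, a related enzyme, was at 91.7, 47.7 and 72.9 CPM in control and at 56.5, 28.8 and 40.7 CPM with FKA. Its groups overlapped, with library 2 the lowest in each, while every batch gave a decrease (-0.7, -0.73 and -0.84), and the edgeR adjusted p was 0.039 for a log2 fold change of -0.75. That call was kept in 7 of 17 settings. With the batch as a block the edgeR adjusted p of SETDB2 was 0.00032, at a log2 fold change of -0.76. EHMT2, known as G9a, which writes dimethyl-H3K9 in euchromatin, was called higher at 0.29 (edgeR adjusted p = 0.0363), whereas its partner EHMT1 was at -0.04 and did not pass. With the batch as a block the adjusted p of EHMT2 was 0.0577.

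EZH1 is the catalytic subunit that can stand in for EZH2 in Polycomb repressive complex 2 (PRC2), the H3K27 writer, and is known from tissues with few dividing cells. Its level was 45.4, 43.1 and 38.9 CPM in control and 90.5, 106 and 82.8 CPM with FKA. All FKA libraries were above all controls, and the log2 fold change was 1.13 ± 0.11 (SE, edgeR adjusted p = 5.95e-05), with batch values of 1, 1.3 and 1.09. EZH2, which is not a member, was at 74.4, 120 and 125 CPM in control and at 38.7, 44.8 and 31.2 CPM with FKA, a log2 fold change of -1.48 (edgeR adjusted p = 0.000318).

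The EZH1 to EZH2 ratio within each library, taken on FPKM so that library scaling cancels and length is accounted for, was 0.826, 0.485 and 0.423 in control and 3.17, 3.2 and 3.59 with FKA. The mean ratio rose from 0.578 ± 0.217 to 3.32 ± 0.234 (SD, n = 3 each), 5.74-fold, so EZH2 was the more abundant of the pair in every control library and EZH1 in every FKA library.

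**Figure D2:**
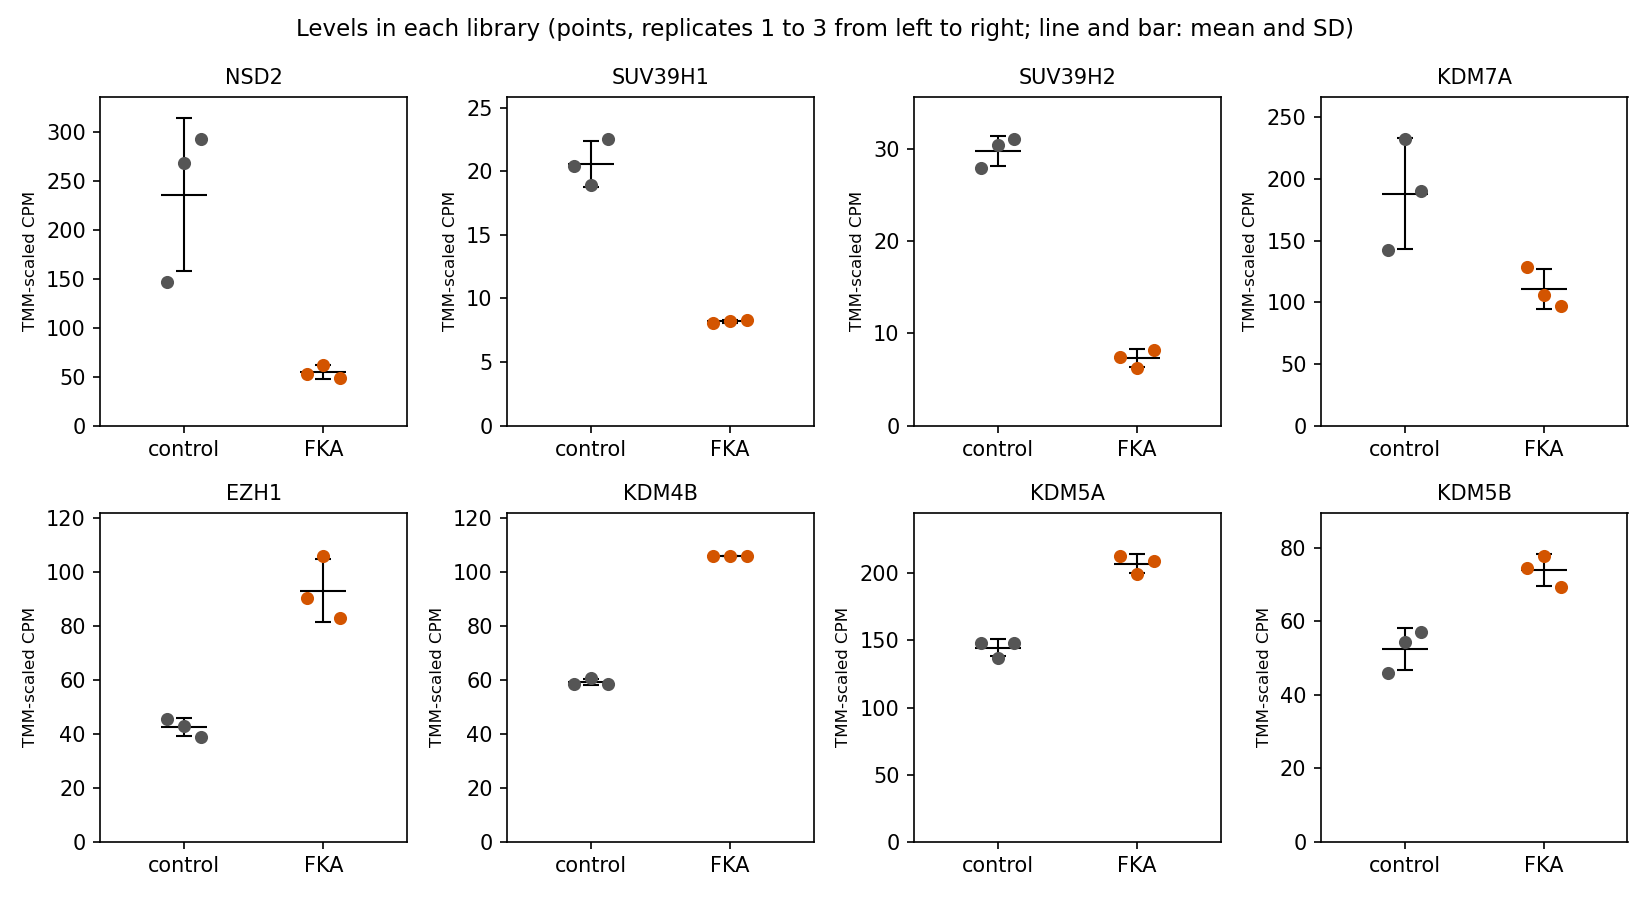
TMM-scaled CPM (y axis, from 0) in each of the 6 libraries for 8 called members, with control in grey, FKA in orange, replicates 1 to 3 from left to right, and lines and bars for the mean and SD. NSD2 falls from a mean of 236 to 54.7 CPM with the lowest control value in library 1, and KDM4B rises from 59.2 to 106 CPM with libraries of a group close together.

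Of the 5 H3K4 writers, 2 were lower and 3 did not pass (40% called, beside 59.8% of all genes). KMT2B, the close paralog of KMT2A, was at 182, 166 and 180 CPM in control and at 150, 126 and 141 CPM with FKA. All FKA libraries lay below the controls. It fell by 0.34 on the log2 scale (edgeR adjusted p = 0.0129), from 176 ± 8.86 to 139 ± 12.4 CPM (SD, n = 3 each). SETD1A, a catalytic subunit of the SET1 complexes, fell by 0.23 (edgeR adjusted p = 0.0469), a call that only 1 of 17 other settings kept, and with the batch as a block the adjusted p was 0.0573. SETD1B, the other SET1 enzyme, was at 0.25 and did not pass (edgeR adjusted p = 0.085), but passed with the batch as a block at 0.0269. KMT2C and KMT2D, which write monomethyl-H3K4 at enhancers, did not pass, at 0.01 and -0.16. Under library totals 1 H3K4 writer was higher and 4 did not pass.

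Among H4K20 writers, KMT5A, which writes the monomethyl mark and whose protein is turned over through the cell cycle, was at 34.9, 59.3 and 56.9 CPM in control and at 32.5, 39.4 and 32.1 CPM with FKA. Control library 1 lay within the FKA range, so the groups overlapped, and the call at -0.54 (edgeR adjusted p = 0.0353) was kept in 7 of 17 settings. KMT5B and KMT5C, which add further methyl groups at this residue, did not pass, at 0.05 and 0.29. Of the 4 other SET-domain members, SETD3, known as an actin histidine methyltransferase, was at 65.3, 73.9 and 86.4 CPM in control and at 57, 55 and 58.8 CPM with FKA. Its groups did not overlap, and it fell by 0.40 on the log2 scale (edgeR adjusted p = 0.0123). KMT2E, SETD5 and SETD7 did not pass, at 0.11, -0.12 and 0.19.

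Of the 4 H3K4 erasers, 2 were higher and 2 did not pass (50% called, beside 59.8% of all genes). KDM5A, which removes trimethyl-H3K4 and binds the retinoblastoma protein, was at 148, 137 and 148 CPM in control and at 213, 199 and 209 CPM with FKA. KDM5B, its paralog, was at 46, 54.3 and 57.1 CPM in control and at 74.5, 77.8 and 69.4 CPM with FKA. Neither pair of groups overlapped. The log2 fold changes were 0.52 ± 0.08 (SE, edgeR adjusted p = 0.000645) for KDM5A and 0.49 ± 0.10 (SE, edgeR adjusted p = 0.00325) for KDM5B. KDM1A, or LSD1, the flavin-dependent eraser of mono- and dimethyl-H3K4, did not pass at -0.12 (edgeR adjusted p = 0.212), nor did KDM1B at 0.19. The FPKM ratio of KDM5A and KDM5B together to KDM1A rose from 0.664 ± 0.0329 to 1.03 ± 0.0656 (SD, n = 3 each) without overlap.

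The KDM4 enzymes remove trimethyl groups from both H3K9 and H3K36, and 2 of the 3 rose (66.7% called, beside 59.8% of all genes). KDM4B was at 58.5, 60.7 and 58.5 CPM in control and at 106 CPM in each of the 3 FKA libraries. It had the smallest standard error of the called members, 0.0758, for a log2 fold change of 0.84 (edgeR adjusted p = 3.47e-05, 1.79-fold higher). KDM4C rose by 0.29 (edgeR adjusted p = 0.0202), from 33.7 ± 1.36 to 41.2 ± 0.284 CPM (SD, n = 3 each), and KDM4A did not pass at 0.16 (edgeR adjusted p = 0.14). The FPKM ratio of KDM4B to KDM4A went from 0.324, 0.353 and 0.329 to 0.494, 0.57 and 0.555.

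KDM7A, a JmjC eraser with a PHD finger that acts on H3K9 and H3K27, was at 142, 232 and 190 CPM in control and at 129, 106 and 97 CPM with FKA. The groups did not overlap, but batch 1 gave only -0.15 where batches 2 and 3 gave -1.13 and -0.97. The log2 fold change was -0.77 ± 0.18 (SE, edgeR adjusted p = 0.00485). KDM6B, the inducible H3K27 eraser also known as JMJD3, was at 80.6, 105 and 85.1 CPM in control and at 74.7, 71.9 and 59.2 CPM with FKA. Its log2 fold change was -0.40 (edgeR adjusted p = 0.0248). Here too batch 1 gave little, at -0.11, where batches 2 and 3 gave -0.55 and -0.52.

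The other 5 H3K9 erasers did not pass. KDM3A, KDM3B, PHF2 and PHF8 lay between 0.08 and 0.16. JMJD1C was at 0.20 with library 3 going down in its batch (-0.12) where the other two went up. The 3 H3K36 erasers KDM2A, KDM2B and KDM8 did not pass in edgeR either, at 0.11, -0.22 and -0.43. KDM8 was at 3.8, 2.88 and 2.74 CPM in control and at 2.24, 2.13 and 2.59 CPM with FKA, lower in every FKA library than in any control, with the lowest counts of all members. At an unadjusted p under 0.05, 1 of these 3 passed, and DESeq2 called 0. With the batch as a block KDM2B, which tethers a Polycomb complex to CpG islands, passed at an edgeR adjusted p of 0.0477.

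Sums over genes compared the classes within each library. Summed FPKM of all writers was 317 ± 18 in control and 325 ± 10.5 with FKA, and that of all erasers was 260 ± 15.8 and 305 ± 13.9 (SD, n = 3 each). FPKM is scaled by library totals, not by TMM. With library totals the middle tested gene lay at 0.17 on the log2 scale, beside 0.01 with TMM. FPKM sums carry that upward shift, so they do not give class changes on the TMM scale. Ratios taken within a library do not depend on it. The writer to eraser ratio was 1.22, 1.21 and 1.23 in control and 1.07, 1.05 and 1.09 with FKA, 0.876 times the control mean, with no overlap. Without JMJD1C, whose share of the erasers' summed FPKM averaged 0.146 in control, the mean ratios were 1.43 and 1.27. By residue, the H3K4 ratio was 1.25, 1.14 and 1.22 in control and 1.07, 0.949 and 1.01 with FKA. The H3K9 ratio was 0.727, 0.56 and 0.589 against 0.481, 0.46 and 0.558, and without SETDB2 its groups overlapped. The H3K36 ratio overlapped between groups, at 2, 2.68 and 2.37 against 2.15, 2.19 and 1.9. KDM4A, KDM4B and KDM4C, which act on both residues, were left out of these H3K9 and H3K36 ratios. Their summed FPKM was 24.5, 25.3 and 24.4 in control and 36.9, 34.5 and 34.4 with FKA. With them counted, the H3K9 ratio was 0.598, 0.471 and 0.496 against 0.386, 0.373 and 0.441. The overlap at H3K36 was found with KDM2A, KDM2B and KDM8 as the only erasers. Their summed FPKM was 36.2, 35.6 and 37.1 in control and 40.3, 37.3 and 40.1 with FKA. That of the H3K36 writers was 72.4, 95.6 and 87.8 in control and 86.7, 81.6 and 76 with FKA. The H3K36 ratio was not taken with the KDM4 genes counted, so the overlap need not hold for all H3K36 erasers.

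**Figure D3:**
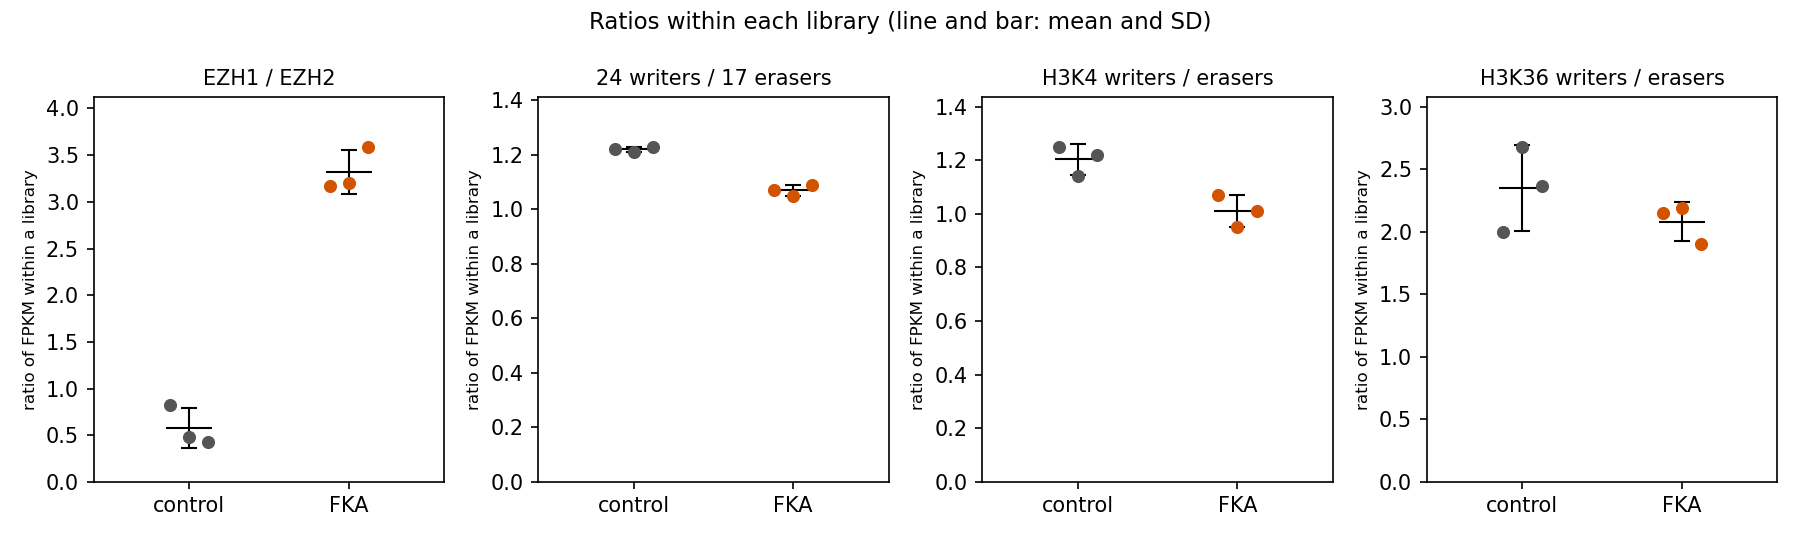
Ratios of FPKM within each of the 6 libraries (y axis, from 0), control in grey and FKA in orange, with lines and bars for the mean and SD, for EZH1 over EZH2 and for summed writers over summed erasers in all, at H3K4 and at H3K36. The EZH1 to EZH2 ratio moves from a mean of 0.578 to 3.32, and the ratio of summed writers to summed erasers from 1.22 to 1.07. The H3K36 groups overlap, with KDM4A, KDM4B and KDM4C left out of the H3K36 erasers, and need not overlap with them counted.

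Non-overlap of the 3 control and 3 FKA libraries was found for 24 of the 41 members, 12 in each direction, where 67.3% of all genes did not overlap. Of the 19 called members, 6 kept direction and call in all 17 alternative settings: NSD2, SUV39H1, SUV39H2, EZH1, KDM5A and KDM4B. KDM5B lost its call in 1 setting, the fit without FKA libraries 2 and 3, which leaves 1 FKA library. Its log2 fold change there was 0.50 beside 0.49 with all libraries (edgeR adjusted p = 0.0588). KDM7A kept its call in 14 of 17 settings, NSD1 and SETD3 in 12, KMT2B in 11, and KDM4C and KDM6B in 10.

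Several smaller calls were lost when 1 library was left out, a step that also leaves fewer samples in the test; edgeR adjusted p are given in parentheses. For KDM4C, SETDB1, SETD1A and ASH1L most single omissions lost the call with little change in the log2 fold change. KDM4C was lost without control library 2 or 3 or any 1 FKA library (0.0502 to 0.0729), at log2 fold changes of 0.25 to 0.30. SETDB1 was lost without control library 3 or any 1 FKA library (0.0594 to 0.0826), at -0.27 to -0.24. SETD1A was lost without any 1 of the 6 (0.068 to 0.163), at -0.26 to -0.18, and ASH1L without control library 2 or 3 or any 1 FKA library (0.0509 to 0.157), at 0.19 to 0.30. EHMT2 was lost without library 2 or 3 of either group (0.061 to 0.153), at 0.21 to 0.31. SETDB2 was lost without control library 1 or 3 or FKA library 2 or 3 (0.0869 to 0.123), at -0.74 to -0.53, and KMT5A without control library 2 or 3 or FKA library 1 or 3 (0.101 to 0.115), at -0.50 to -0.42. KMT2B was lost without FKA library 2 (0.0521), at -0.27, and KDM6B without control library 2 (0.0822) or FKA library 3 (0.0901), at -0.28 and -0.30. In the other direction, SETD1B passed without control library 1 (0.0201), KDM2B without control library 2 (0.034) and JMJD1C without FKA library 3 (0.0454).

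**Figure D4:**
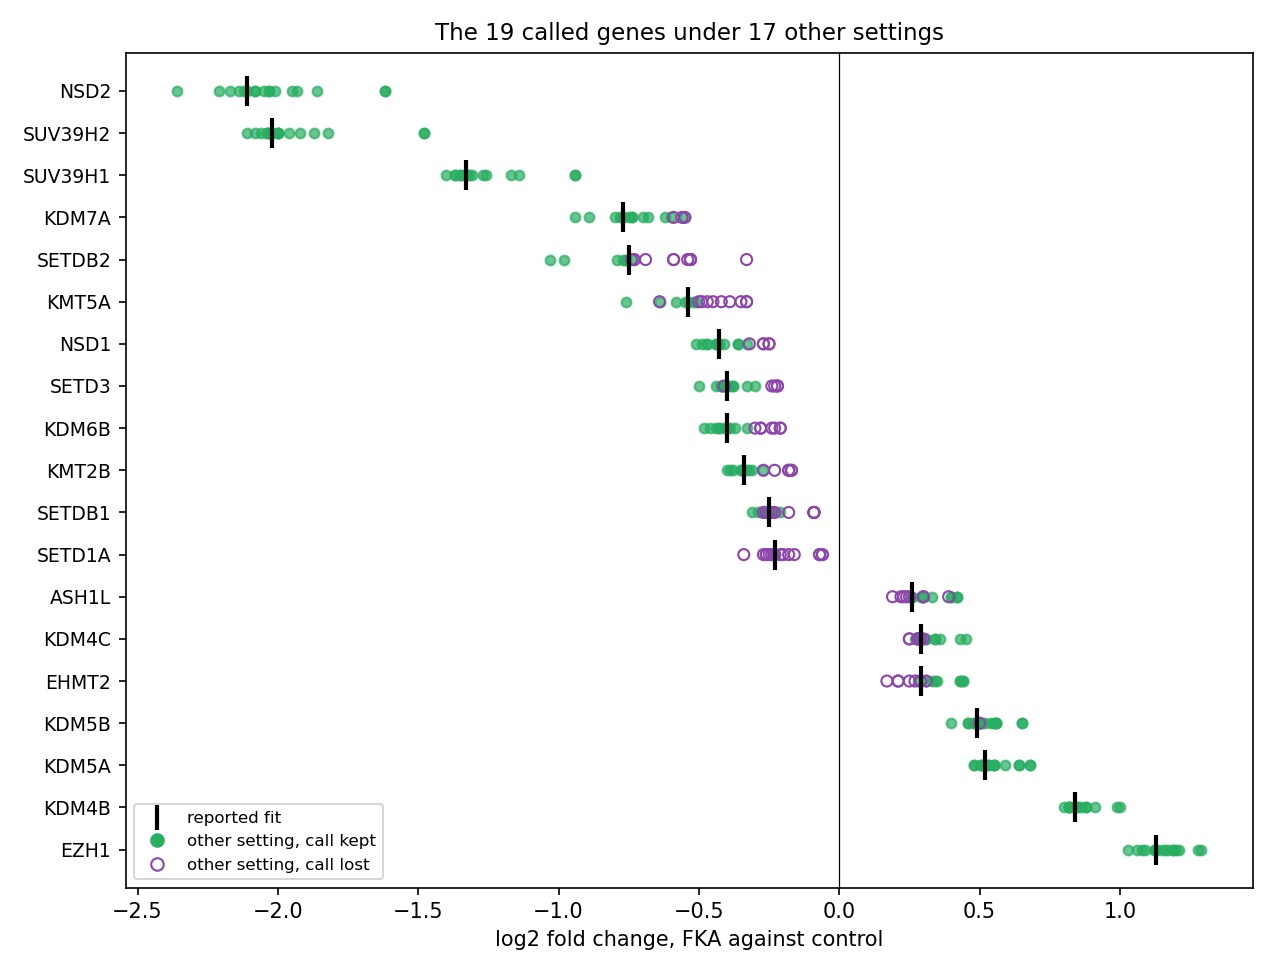
Log2 fold change of the called members (x axis) as reported, shown as a black bar, and under each of 17 other settings, shown as filled green points where the call held and open purple circles where it did not. NSD2 spans -2.36 to -1.62 and EZH1 spans 1.03 to 1.29 with all points filled, while SETD1A is filled in 1.

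The proteins that work with these enzymes were described from lists of complex subunits. Of 9 tested PRC2 subunits other than the EZH enzymes, 1 rose, 6 fell and 2 did not pass, 77.8% called beside 59.8% of all genes, with a median log2 fold change of -0.44 beside 0.01. PHF19, which brings PRC2 to chromatin, fell by 2.35, the core subunit SUZ12 by 0.77 and the cofactor JARID2 by 0.66 (edgeR adjusted p = 0.0001, 0.000596 and 0.000737). The 1 that rose was PHF1, a relative of PHF19, at 0.47 (edgeR adjusted p = 0.0186). Of 15 subunits around the H3K4 writers, 2 rose, 7 fell and 6 did not pass, a called share of 60% that was close to the 59.8% of all genes. Their median was -0.25, and under library totals the counts were 4 higher and 4 lower. WDR5, a core subunit of all these complexes, fell by 0.75, PAXIP1 of the KMT2C and KMT2D complexes by 0.93, and BOD1 by 0.62 (edgeR adjusted p = 0.00105, 7.53e-05 and 0.0136).

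Of 15 H3K9 methylation partners, 4 rose, 5 fell and 6 did not pass, again 60% called beside 59.8% of all genes, with a median of -0.09 that turned to 0.07 under library totals. UHRF1, which reads methylated H3K9 and hemimethylated DNA, fell by 3.53, from 155 ± 18.1 to 13.4 ± 3.28 CPM (SD, n = 3 each, edgeR adjusted p = 2.89e-06). ATF7IP2 and RESF1, known as SETDB1 partners, rose by 1.24 and 0.92 (edgeR adjusted p = 0.000238 and 0.000234). The HP1 genes CBX1, CBX3 and CBX5, readers of the mark SUV39 enzymes write and singled out after their values were seen, fell by 0.45, 0.55 and 0.73 (edgeR adjusted p = 0.00505, 0.00145 and 0.000742).

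Around LSD1, 3 of 12 tested partners rose, 4 fell and 5 did not pass (58.3% called), with a median of -0.12 that became 0.03 under library totals. RCOR2, a CoREST paralog, fell by 1.94 and the deacetylase HDAC2 by 0.78, while PHF21A, which reads unmethylated H3K4, rose by 0.70 (edgeR adjusted p = 0.00197, 0.0001 and 0.0137). Paralogs are named for comparison. RCOR1 and RCOR3 did not pass, with control means of 97.7 and 115 CPM beside 8.21 CPM for RCOR2. HDAC1 rose by 0.31 (edgeR adjusted p = 0.0171). Around KDM2B, 4 of 9 subunits of its Polycomb complex rose, 2 fell and 3 did not pass (66.7% called), with a median of 0.22. BCORL1, the ubiquitin ligase RING1 and SKP1 rose by 1.14, 0.95 and 0.58 (edgeR adjusted p = 7.54e-05, 3.15e-05 and 0.000599).

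Of 21 other histone lysine enzymes, 15 were tested, of which 2 rose, 7 fell and 6 did not pass (60% called, beside 59.8% of all genes), with a median of -0.29. Beside EZH2, SMYD5 fell by 2.33, from 16.4 ± 3.47 to 3.24 ± 1.56 CPM, and PRDM6 rose by 3.26 from a very low level, 0.138 ± 0.0538 to 1.36 ± 0.32 CPM (SD, n = 3 each, edgeR adjusted p = 0.000367 and 0.000223). KMT2A, the MLL of the line's fusion and named here for that reason, fell by 0.45 (edgeR adjusted p = 0.00518), and gene counts do not separate it from the fusion transcript.

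**Figure D5:**
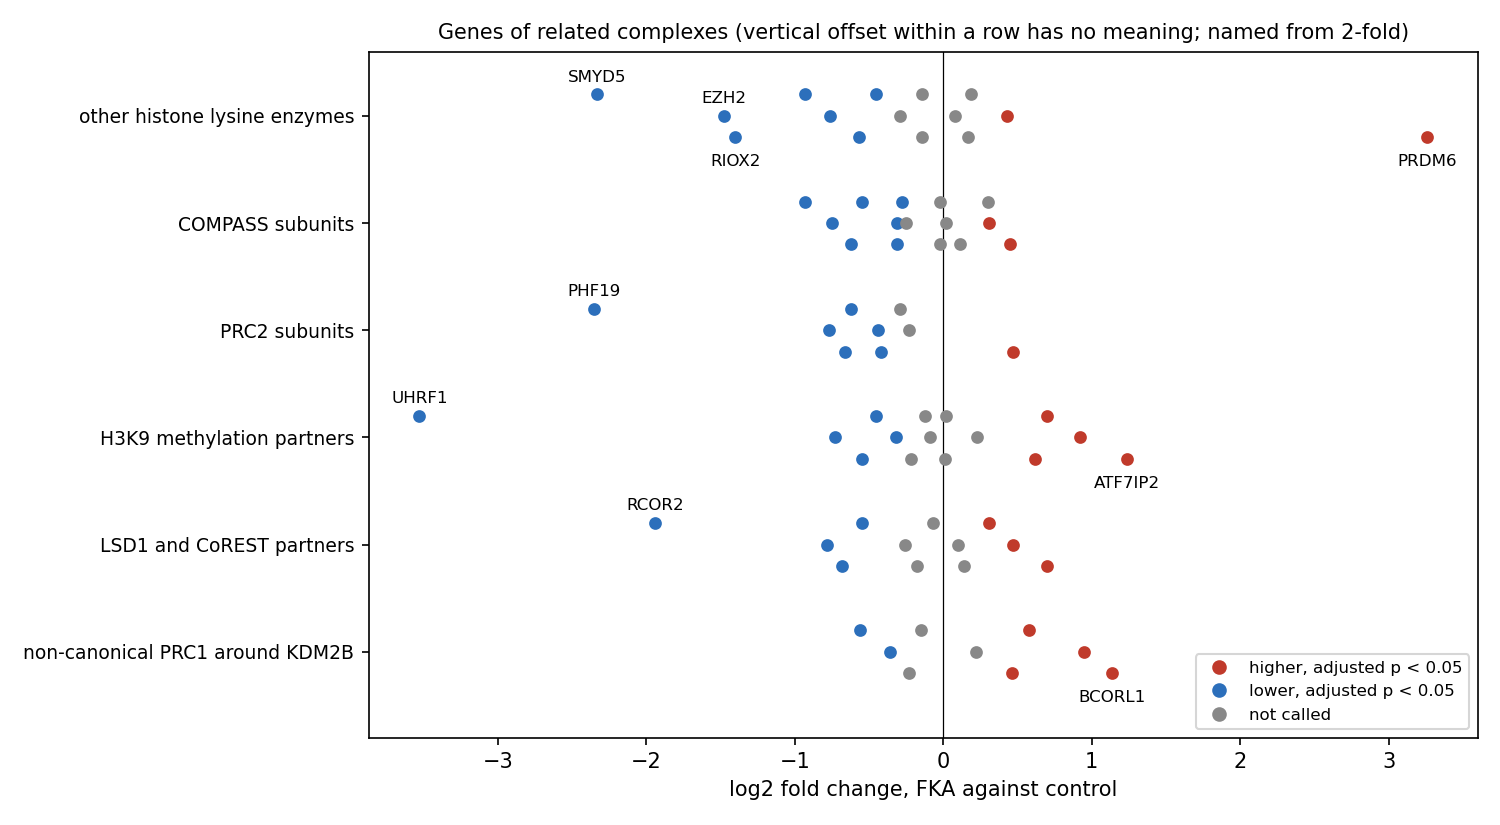
Fitted log2 fold change (x axis) of each tested gene in the lists of related enzymes and complex subunits, 1 row of the y axis per list, with red for higher, blue for lower and grey for not called. UHRF1 lies farthest left at -3.53 and PRDM6 farthest right at 3.26.

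Proliferation genes were read from the same fit. All 10 on the list were called lower, where 30.5% of all genes were. Their summed CPM was 1200, 2350 and 2660 in control and 161, 207 and 175 with FKA. Control library 1 was lowest of the controls in this sum, as it was for NSD2, KMT5A and EZH2. It was also lowest for members that rose or did not pass, such as KDM5B (46, 54.3 and 57.1 CPM) and KMT2C (198, 260 and 268 CPM). For SUV39H1 (20.4, 18.9 and 22.5 CPM) and the proliferation gene MCM2 (163, 142 and 186 CPM) it was not the lowest. The part of the proliferation genes in the members' changes was not tested. Without control library 1 the log2 fold change of NSD2 was -2.36.

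The 10 markers of the leukaemia line summed to between 1970 and 2130 CPM in every library, a sum carried mostly by CEBPA, PTPRC and FLT3, which did not pass the test. Of the 10, 2 were higher, 2 were lower and 6 did not pass. MPO, a granule enzyme, fell from 44.5 ± 21.1 to 1.06 ± 0.928 CPM (SD, n = 3 each, edgeR adjusted p = 6.94e-05). CD14, a monocyte marker, rose from 0.234 ± 0.112 to 1.12 ± 0.227 CPM (SD, n = 3 each, edgeR adjusted p = 0.00174). HOXA9 was lower at a log2 fold change of -0.52 and MEIS1 higher at 0.58 (edgeR adjusted p = 0.0437 and 0.0434). In both of these genes the groups overlapped. HOXA9 was at 8.17, 12.9 and 10.7 CPM in control and at 8.32, 7.06 and 6.7 CPM with FKA. MEIS1 was at 47.2, 77.4 and 61.8 CPM in control and at 94.4, 116 and 68 CPM with FKA. Of the 7 T and NK markers 5 were in the table, with summed CPM between 21.3 and 24.3 in control and between 9.44 and 9.93 with FKA, nearly all from NKG7, and CD3D, CD7 and GNLY had at most 1 count a library. KLRD1, too low to be tested, had 0 counts in each control library and 4, 9 and 8 counts with FKA. B cell markers summed to between 20.6 and 27.3 CPM in control and between 7.3 and 9.67 with FKA, nearly all from PAX5, and epithelial markers to between 12.9 and 21.8 CPM over all libraries. No erythroid marker was tested. Mesenchymal genes stood apart in single libraries: COL1A1 was at 2.41, 2.29 and 0.119 CPM in control and at 0.342, 13 and 12.9 CPM with FKA, and FN1 showed the same order, while the mesenchymal sum, mostly VIM, was between 275 and 392 CPM in control and between 447 and 532 CPM with FKA. Without FKA libraries 2 and 3, 6 members were called, 3 higher and 3 lower, and all genes called fell from 8090 to 4619. That fit sets 1 FKA library against 3 controls, takes its spread from the controls alone and assumes that the lone FKA library varies like them.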

How the data were processed

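RNA of 6 MV4;11 libraries was sequenced, grouped by the titles and treatment labels. The authors deposited whole-number read counts and FPKM values per gene, and the FPKM follow from the counts with 1 length per gene (largest relative deviation 6.9e-07). No source used here names the aligner, counter, annotation or strand setting. Per the submitters' processing notes the builds were GRCm38 and mm10, which are mouse builds, whereas 94.5% of the gene symbols matched human RefSeq genes, so no coordinates come from the count files. Totals ran from 29971171 to 36362421 counts per library.

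Counts were tested in R 4.3.3 with edgeR 4.0.16 (filterByExpr, TMM, quasi-likelihood F test, Benjamini-Hochberg adjustment over 13531 genes, threshold 0.05). Levels are TMM-scaled CPM. Alternatives were DESeq2 1.42.0, RLE, upper-quartile and library-total scaling, no low-count filter, a minimum of 1 CPM in 3 libraries, a block for batch, limma 3.58.1 on log2(FPKM + 1), with and without a mean FPKM of at least 1, and on log2(FPKM + 0.1), leaving out each library, and, chosen after seeing the data, leaving out FKA libraries 2 and 3 together. The fit was tested on simulated counts.

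The labels give each replicate number its own batch, so the numbers pair the libraries. Deviations from the group means correlated at 0.0537, 0.345 and -0.0768 within batches 1, 2 and 3. Between libraries of different batches they correlated at -0.267 to 0.224, a range that holds the values of batches 1 and 3.

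Members, lists and motifs were chosen with earlier results of these data known. Values in every library are given for members called with at least a 2-fold change and for the most changed member of each class and residue group. Of each other list, up to 3 called genes with the largest change are named, of marker lists the most abundant genes and defining genes at or near 0, and others only where marked. Writers and erasers were grouped by their main known residue, and some act on more than 1. No set test was run.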

Additional observations from a re-analysis of the deposited data

How the results depend on the processing

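Over the 41 members and the alternatives, 534 of 696 values kept direction and side of the threshold, 96 lost and 42 gained a call, and 24 changed sign. The cause of these changes was not tested beyond what each setting removes. FPKM is scaled by library totals, so the limma fits and the library-total fit share that scaling and are not independent settings. Members higher, 7, became 11 with upper-quartile factors, 16 with library totals, 4 without a low-count filter, 14, 14 and 15 in the 3 limma fits and 3 without FKA libraries 2 and 3, and ranged from 4 to 8 when single libraries were left out. Members lower, 12, became 4 with library totals, 3, 3 and 4 in limma and 3 without FKA libraries 2 and 3, and ranged from 7 to 11. Writers higher, 3, became 1 in DESeq2, 5 with upper-quartile factors, 6 with library totals, 1 without a filter, 6 in each limma fit and 1 without FKA libraries 2 and 3, and ranged from 1 to 4. Writers lower, 10, became 6 with upper-quartile factors, 3 with library totals, 3 in each limma fit and 3 without FKA libraries 2 and 3, and ranged from 6 to 9. Erasers higher, 4, became 10 with library totals, 8, 8 and 9 in limma and 2 without FKA libraries 2 and 3. Erasers lower, 2, became 1 with library totals, 0, 0 and 1 in limma and 0 without FKA libraries 2 and 3, and ranged from 1 to 2. All genes called fell from 8090 to 4619 without FKA libraries 2 and 3. The writers' median of -0.14 was 0.02 with library totals and in each limma fit, and the erasers' 0.11 was 0.26 with library totals and 0.25, 0.26 and 0.27 in limma.

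Members not called in the main test changed sign as follows. With library totals KMT2D was at 0.00, EHMT1 at 0.12, SETD5 at 0.03 and KDM1A at 0.04. In the limma fits EHMT1 was at 0.10, 0.12 and 0.10, SETD5 at 0.03, 0.04 and 0.03, and KDM1A at 0.03 in each. EHMT1 was at 0.03 with upper-quartile factors. KMT2C was at 0.00 in DESeq2 and -0.02 without a filter. Leaving out single libraries moved KMT2C from -0.12 to 0.08, EHMT1 from -0.10 to 0.02, KMT5B from -0.01 to 0.09, KMT2E from -0.01 to 0.19, KDM3A from -0.05 to 0.16 and PHF2 from -0.04 to 0.16. KDM8 had no value in limma with a mean FPKM of at least 1. The replicate block moved the calls of SETD1A, EHMT2, SETD1B and KDM2B, given above, and of no other member. The fit without FKA libraries 2 and 3 holds 1 FKA library, assumed to vary like the controls, so a call lost there need not mean a smaller change.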
